A study of Danio rerio with 5 samples.

Results

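The genes rgs5a (LL0000023616), rgs5b (LL0000023617), rgs4 (LL0000023615) and rgs2 (LL0000023610) were followed through zebrafish larval cells sorted for a pdgfrb reporter. They were chosen by symbol and are 4 of 36351 genes in the single-cell matrices, where all 4 were found. The authors' deposited bulk table lists 3 of them and not rgs2. Single-cell libraries 1 and 2 hold EGFP-positive cells of Tg(pdgfrb:egfp)ncv22 larvae, taken 5 days after fertilization and made with the 10x 3′ v3 kit. The 3 bulk libraries, um148 libraries 1 to 3, hold citrine-positive cells of larvae of the same age. Their titles call them um148 mutants, their strain is labelled Tg(pdgfrb:citrine)s1010;pdgfb um148, and they were primed with oligo-dT (TotalScript). The titles name no gene for um148, the strain label attaches it to pdgfb, a ligand name, and whether the allele lies in a ligand gene or in the receptor gene pdgfrb remains uncertain here. In both designs the reporter follows pdgfrb, so the sorts can hold any cell type in which that reporter was on, not mural cells alone. Reporter levels per class were not examined, so cells carried over without the reporter cannot be told apart. The labels do not say how many larvae were pooled, nor that libraries came from separate clutches, so the spread behind each p-value may be technical. For the single-cell libraries it is the spread left after cell class and library are fitted, shared by all classes. The authors' p-values for um148 also rest on wild-type libraries that are not among these samples.

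Regulators of G protein signalling bind the active alpha subunit of a heterotrimeric G protein and speed up its GTP hydrolysis, which shortens the signal of the receptor upstream. In mammals RGS5 is a widely used marker of pericytes, the cells that wrap capillaries, and of part of the vascular smooth muscle. Mammalian RGS4 and RGS5 act on the Gi and Gq classes of alpha subunits, and RGS2 acts mainly on Gq. Through Gq, endothelin receptors, alpha1-adrenergic receptors and some but not all angiotensin receptors drive contraction. Mice without Rgs2 are hypertensive. Zebrafish have a pair of rgs5 genes. In the RefSeq table of the assembly GRCz12tu, rgs4 and rgs5a are adjacent protein-coding genes, with nos1apa on the far side of rgs4 and rgs16 and rgs8 on the far side of rgs5a, and rgs5b lies next to nos1apb. Sequences of these genes were not used here.

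Library 1 held 70247500 UMIs in 12121 barcodes and library 2 held 77896721 in 10182. After filtering, 5653 and 7358 cells were kept, with medians of 5689 and 6062 UMIs per cell, and 30 barcodes occurred in both libraries, 11 of them among kept cells. A cell was assigned to a class when at least 3 of that class's 7 markers had a UMI and more of them than of any other class's. No Rgs gene was among the markers. This placed 66.6% and 69.2% of kept cells and gave 113 and 166 pericyte-like cells, 353 and 495 smooth-muscle-like cells and 1302 and 1795 fibroblast-like cells. The 10 genes of highest fold in the pericyte-like gate included ndufa4l2a, kcnj8 and abcc9 in both libraries, and in library 2 also zgc:158423, tfr1a, slc47a2.1 and slc5a6a, which lead another cluster together with coch. The smooth-muscle-like gate had tagln, desmb and acta2 among its leading genes. The leukocyte-like gate, which holds the high rgs2 values given later, included lyz and ctsl.1. Of these genes ndufa4l2a, kcnj8, abcc9, tagln, desmb, acta2 and lyz are markers of their own gates, so their place follows from the gating. Leading genes outside the marker lists, in both libraries, were pcdh18a and rasl12 in the pericyte-like gate. In the smooth-muscle-like gate they included csrp1b and mylkb, and in the leukocyte-like gate ctsl.1. For 12 classes with at least 20 cells in each library, the UMI counts were summed per class and library and tested with edgeR's quasi-likelihood test, with library as a block. Levels are given as CPM, the UMIs of the gene scaled by all UMIs of the summed cells, and their intervals cover counting error only.

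The rgs5a gene was highest in pericyte-like cells, at 787 CPM in library 1 (95% exact Poisson interval 721 to 856) and 749.8 in library 2 (702 to 800.4). Fibroblast-like cells followed at 315 and 351 CPM and smooth-muscle-like cells at 316 and 332, and these groups overlap. Every other class of the 12 was lower in both libraries, from tenocyte-like cells at 81.4 and 178 CPM down to osteoblast-like cells at 4.86 and 22.7. By class, the mean was 768 ± 26.0 CPM (SD, n = 2) in pericyte-like, 333 ± 25.7 in fibroblast-like and 324 ± 11.1 in smooth-muscle-like cells. The order below these 3 classes is not resolved, since the ranges over the 2 libraries of neighbouring classes overlap from tenocyte-like cells downwards.

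Set against the mean of the 10 non-mural classes, rgs5a was higher in pericyte-like cells by 3.43 ± 0.24 on the log2 scale (edgeR adjusted p = 6.75e-09) and in smooth-muscle-like cells by 2.46 ± 0.25 (edgeR adjusted p = 3.44e-07). Between the mural classes rgs5a was 2.49 times higher in pericyte-like cells in library 1 and 2.26 times in library 2. The fitted difference, which uses edgeR's scaling and not plain CPM as these ratios do, was 0.97 ± 0.41 on the log2 scale. It did not pass over all genes (edgeR adjusted p = 0.155). It passed when libraries were scaled by their size alone (edgeR adjusted p = 0.0481) and when the gate asked for 4 markers (edgeR adjusted p = 0.0173). Against fibroblast-like cells the difference was 0.96 ± 0.40 and did not pass either (edgeR adjusted p = 0.177). Since fibroblast-like cells are many, they held 36.4% and 40.2% of all rgs5a UMIs of the kept cells, against 6.83% and 7.89% in pericyte-like and 10.9% and 11.5% in smooth-muscle-like cells.

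Detection of rgs5a did not follow its level. Of pericyte-like cells 44.2% and 48.2% had a UMI, and of smooth-muscle-like cells 58.6% and 57.0%. When every cell was thinned to 1000 UMIs these shares were 23.9% and 27.1% in pericyte-like, 18.7% and 21.8% in smooth-muscle-like and 20.2% and 22.3% in fibroblast-like cells, so no order is read from them. In leukocyte-like cells, which are deeper, 4.08% and 4.84% of cells had an rgs5a UMI before thinning. The pericyte-like cell richest in rgs5a held 11.7% of that class's rgs5a UMIs in library 1 and 6.44% in library 2.

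The rgs5b gene was also highest in pericyte-like cells among the 12 classes, at 899 CPM in library 1 (830 to 973) and 608 in library 2 (565 to 654). These values differ by more than counting error, and with a mean of 754 ± 206 CPM (SD, n = 2) the spread between the libraries was wider than for rgs5a. In library 1, 1 pericyte-like cell with 80 UMIs held 13.0% of that class's rgs5b UMIs, and in library 2 the richest cell held 6.58%. Smooth-muscle-like cells held 206 and 227 CPM and fibroblast-like cells 209 and 173. Osteoblast-like cells followed at 267 and 87.6 CPM, but 1 cell held 43.6% of their rgs5b UMIs in library 1 and 1 cell held 59.3% in library 2. In smooth-muscle-like cells of library 1, 1 cell with 92 UMIs held 16.5% of the rgs5b UMIs.

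Over the mean of the non-mural classes rgs5b was higher in pericyte-like cells by 3.05 ± 0.31 on the log2 scale (edgeR adjusted p = 9.64e-07) and in smooth-muscle-like cells by 1.52 ± 0.35 (edgeR adjusted p = 0.00306). In CPM, pericyte-like cells exceeded smooth-muscle-like cells 4.38-fold in library 1 and 2.68-fold in library 2. The fitted difference, with edgeR's scaling, was 1.53 ± 0.54 on the log2 scale and did not pass (edgeR adjusted p = 0.0826). It passed with scaling by library size alone (edgeR adjusted p = 0.0368), and over fibroblast-like cells the difference was 1.73 ± 0.54 (edgeR adjusted p = 0.0491). Endothelial-like cells were too few for the fit, with 19 and 30 cells. They held 707 and 792 rgs5b CPM and 194 and 345 rgs5a CPM. Of these cells 21.1% and 23.3% also had UMIs of at least 3 pericyte markers, and 31.6% and 40% of at least 3 fibroblast markers. Their median depth was 13476 and 15394 UMIs, against 5190 and 6027 in pericyte-like cells, and 1 cell held 41.4% of their rgs5b UMIs in library 1 and 1 cell held 21.9% in library 2. Whether some of these barcodes hold more than 1 cell, and the part of depth in their level, was not tested. A cluster led by plvapb, cdh5 and sele held more cells, 92 and 87, and 51.0% of its gated cells were endothelial-like. Its rgs5b level was lower than that of the gate, at 235 and 446 CPM, and its rgs2 level was 39.2 and 46.2 CPM.

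The rgs4 gene separated the mural classes most clearly among the rgs5 pair and rgs4. Pericyte-like cells held 133 CPM in library 1 (107 to 164) and 91.6 in library 2 (75.3 to 110.5), whereas smooth-muscle-like cells held 11.8 (8.09 to 16.7) and 11.2 (8.11 to 15.0). The ratio of CPM was 11.3 in library 1 and 8.21 in library 2, and the fitted difference was 2.98 ± 0.34 on the log2 scale (edgeR adjusted p = 7.53e-06). Fibroblast-like cells lay between them at 46.9 and 54.0 CPM, 0.87 ± 0.29 below pericyte-like cells on the log2 scale, which did not pass (edgeR adjusted p = 0.0649). Neuron-like cells followed at 42.8 and 20.4 CPM, a range that overlaps that of tenocyte-like cells at 9.31 and 40.9.

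Over the mean of the non-mural classes rgs4 was higher in pericyte-like cells by 2.91 ± 0.26 (edgeR adjusted p = 1.54e-07). In smooth-muscle-like cells it was level with them, at -0.07 ± 0.34 (edgeR adjusted p = 0.969), a value whose sign changed between settings and which became 1.33 ± 0.27 when classes came from clusters (edgeR adjusted p = 0.00063). Of pericyte-like cells 42.5% and 29.5% had an rgs4 UMI, of smooth-muscle-like cells 5.10% and 5.45%, and of leukocyte-like cells 2.04% and 1.61%. Stellate-like cells, only 13 and 19 in number, held 106.0 and 91.5 rgs4 CPM and 509 and 490.2 rgs5a CPM.

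The rgs2 gene had the opposite pattern within mural cells. No UMI of rgs2 was found in 0 of 113 pericyte-like cells of library 1, which allows a share of cells with a UMI of up to 2.65%, or in 0 of 166 of library 2, which allows up to 1.81%. These limits cover cells with a UMI and not cells expressing rgs2, since at this depth a cell without a UMI may express it. Smooth-muscle-like cells held 190.4 CPM (174 to 208) and 178 CPM (165 to 192), with a UMI in 39.4% and 34.1% of cells. With the pericyte-like sums set at 3 counts, rgs2 was 43.3-fold higher in smooth-muscle-like cells in library 1 and 71.3-fold higher in library 2. These folds depend on that choice of limit (edgeR adjusted p = 1.30e-06 for the difference). When classes came from clusters, the pericyte side did hold rgs2 UMIs and the difference was -5.18 ± 0.51 on the log2 scale (edgeR adjusted p = 1.57e-07). The median cell had 5190 and 6027 UMIs in the pericyte-like and 5990 and 6223 in the smooth-muscle-like gate.

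Outside mural cells rgs2 was high in leukocyte-like cells, at 477 CPM (415 to 545) and 409 (355 to 468), with a UMI in 67.3% and 61.3% of cells. Pigment-like cells held 35.6 and 12.1 CPM, and the remaining classes of the 12 held at most 11.1 CPM in library 1 and 5.31 in library 2. Neuron-like and tenocyte-like cells had no rgs2 UMI in either library, and fibroblast-like cells had 21 and 13, in 0.998% and 0.557% of cells. Over the mean of the non-mural classes rgs2 was higher in smooth-muscle-like cells (edgeR adjusted p = 3.53e-11). The size of that fitted difference depends on classes without a UMI and is not given, and for pericyte-like cells the fit gave no usable standard error. Smooth-muscle-like cells held 51.8% and 58.7% of all rgs2 UMIs of the kept cells, and leukocyte-like cells 21.4% and 17.2%.

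**Figure D1:**
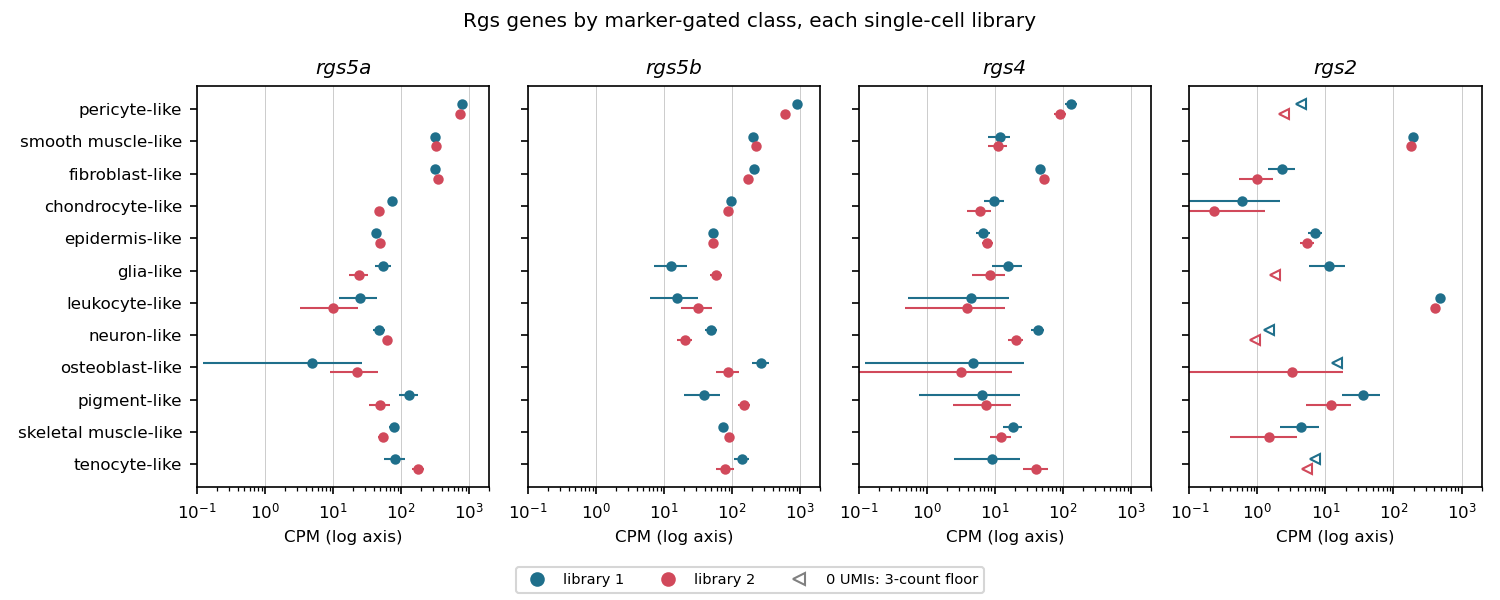
CPM (log axis) of rgs5a, rgs5b, rgs4 and rgs2 in the 12 marker-gated classes, 1 point per library with its 95% exact Poisson interval; open triangles stand at the 3-count floor of sums without a UMI. The rgs5 pair and rgs4 peak in pericyte-like cells, and rgs2 stands at 190.4 and 178 CPM in smooth-muscle-like and 477 and 409 in leukocyte-like cells while both pericyte-like sums hold no UMI.

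Against the background of each comparison, the members stood as follows. In the contrast of the mural classes edgeR called 10.5% of 15564 genes, 3.7% as higher in pericyte-like cells and 6.84% as lower, and of the 4 members it called rgs4 as higher and rgs2 as lower. Of the called genes 35.1% were higher in pericyte-like cells with the main scaling and 59.99% with library size alone, which moved the median of all genes by 0.24 on the log2 scale. Between pericyte-like cells and the non-mural classes 12.0% were called, 9.35% as higher and 2.6% as lower, and rgs5a, rgs5b and rgs4 were among the higher ones. There library size alone moved the median by 0.31 and the higher share of calls from 78.2% to 95.4%. Between smooth-muscle-like cells and the non-mural classes 21.0% were called, 17.0% as higher and 3.98% as lower, and rgs2, rgs5a and rgs5b were among the higher ones. DESeq2's size factors moved the median of the last 2 contrasts by -0.11 and -0.17, with the same members called.

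The pericyte-like gate was not uniform for these genes. Cells of the gate with a UMI of abcc9, kcnj8 or ndufa4l2a (the potassium channel subunits and a respiratory chain subunit of the marker list) numbered 72 and 110. They held 1147 and 1045 rgs5a CPM, while the other 41 and 56 cells of the gate held 109 and 159.8. For rgs4 the values were 171 and 115 CPM with those markers against 63.2 and 44.9 without. For rgs5b they were 1206 and 646 against 324 and 532, so the libraries differed in how far rgs5b followed the channel markers. Median depths were similar, at 5294 and 5390 UMIs per cell with these markers and 5123 and 6526 without. Asking for these markers in the gate gave rgs5a a difference from smooth-muscle-like cells of 1.41 ± 0.41 (edgeR adjusted p = 0.0313), an alternative added after the values had been seen.

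Mural cells were then placed by the number of smooth muscle markers with a UMI minus the number of pericyte markers, among cells gated as either class or tied between them. This axis is built from marker genes and not from Rgs genes, and its cells are not replicates, so the levels along it are a description. The rgs4 level along it went from 156 CPM in library 1 and 109 in library 2, in cells with at least 3 more pericyte markers, to 2.22 and 8.50 in cells with at least 5 more smooth muscle markers. The rgs2 level was 0 in the bins on the pericyte side, 17.9 and 36.8 CPM in cells with 1 to 2 more smooth muscle markers, 133 and 104.5 with 3 to 4 more, and 286 and 274 with at least 5 more. The rgs5a level had a low point in the middle: it was 1030.2 and 1109 CPM at the pericyte end, 149.7 and 233 in cells with 1 to 2 more smooth muscle markers, and 362 and 402 at the smooth muscle end. For rgs5b the 2 libraries disagreed at the pericyte end, with 1254 and 523 CPM, and both ended lower, at 104 and 198. The bin with equal numbers held 9 and 20 cells.

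**Figure D2:**
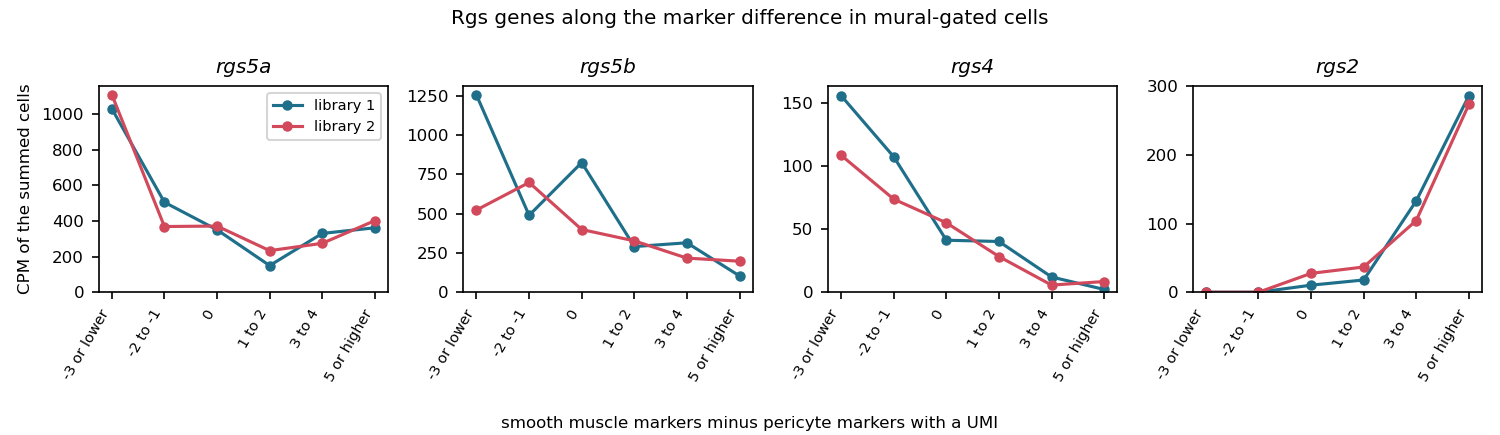
CPM of each gene in mural-gated cells summed by the difference between smooth muscle and pericyte markers with a UMI, 1 line per library. From left to right rgs4 goes from 156 and 109 CPM to 2.22 and 8.50, rgs2 from 0 to 286 and 274, and rgs5a is lowest in the bin of 1 to 2.

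At the level of single cells, rgs5a and rgs2 were found together in smooth-muscle-like cells, in 113 of 353 cells of library 1 and 141 of 495 of library 2. A UMI of rgs2 was present in 54.6% and 50% of cells with rgs5a and in 17.8% and 13.1% of cells without. The cells with rgs5a were deeper, with medians of 6838 and 7092 UMIs against 4448 and 4767, and the part of depth in this joint detection was not tested. In pericyte-like cells rgs4 was found in 62.0% and 51.2% of cells with rgs5a and in 27.0% and 9.30% of cells without, at median depths of 5596 and 5636 against 4685 and 6312 UMIs. In library 2 the cells with rgs5a were the shallower ones. At least 1 of rgs5a, rgs5b and rgs4 had a UMI in 78.8% and 76.5% of pericyte-like cells, and all 3 had one in 17.7% and 14.5%. In smooth-muscle-like cells all 3 were found in 0.567% and 2.02%.

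Smooth-muscle-like cells with an rgs2 UMI had more of the contractile genes than those without. Their acta2 level (smooth muscle actin) was 18847 CPM in library 1 and 20092 in library 2, against 7986 and 9283 in cells without, and their tagln level (transgelin) was 26050 and 27480 against 9481 and 11533. In the other direction, pdgfrb was 63.2 and 63.5 CPM in cells with rgs2 against 149 and 142 without, and notch3, a Notch receptor of mural cells, was 36.4 and 62.8 against 201 and 197. The pericyte marker kcne4 was instead higher in cells with rgs2, at 289 and 189 CPM against 89.0 and 118 without. Median depths were 7407 and 7922 UMIs with rgs2 and 4908 and 4969 without. These splits use the detection of rgs2 itself and carry no test.

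The balance of the rgs5 pair differed between classes. The ratio of rgs5a to rgs5b UMIs was 1.54 and 1.46 in smooth-muscle-like cells, 1.51 and 2.03 in fibroblast-like cells, and 0.875 and 1.23 in pericyte-like cells. In endothelial-like cells it was 0.275 and 0.435. Chondrocyte-like cells had ratios of 0.753 and 0.535. In glia-like cells it was 4.21 in library 1 and 0.417 in library 2, and in pigment-like cells 3.33 and 0.327, so the libraries did not give 1 order there. The differences in ratio carry no test.

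Clusters of all kept cells, made without the 4 members, showed how uneven the broad gates are. The values are a description. The highest rgs5a and rgs4 levels in both libraries lay in a cluster of 119 cells led by chl1a, hapln1a and mxra5b, at 1860 and 1718 rgs5a CPM and 437 and 461 rgs4 CPM, with 40.6 and 142 rgs5b CPM and no rgs2 UMI. Most of its gated cells, 75.0%, were fibroblast-like. A cluster of 926 cells led by abi3bpa, of which 92.8% of gated cells were fibroblast-like, held 728 and 928 rgs5a CPM and 129 and 158 rgs4 CPM. The cluster with the pericyte-like gate as its most frequent one, at 43.0% of gated cells, was led by TCIM_1_of_many, ndufa4l2a, CR318588.3, COLEC10 and colec11, of which ndufa4l2a is a pericyte marker and COLEC10 and colec11 are stellate markers of the gates. It held 859 and 1268 rgs5a CPM, 124 and 120.4 rgs4 CPM and 6.54 and 4.22 rgs2 CPM. The cluster led by chl1a thus exceeded it in both genes and both libraries.

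High rgs5b lay elsewhere. A fibroblast-like cluster of 212 cells led by cyp1c2 and adamts15b held 988 and 804 rgs5b CPM with 165 and 227 rgs5a CPM. Another, of 747 cells led by cxcl12a, nr1h5 and tcf21, held 502 and 651 rgs5b CPM with 89.3 and 106 rgs5a CPM. The cluster led by TCIM_1_of_many and ndufa4l2a had 708 and 700.1 rgs5b CPM, and in no other of the 44 clusters did both rgs5 genes reach its levels of rgs5a and rgs5b in either library.

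High rgs2 levels lay in clusters of several kinds. A cluster led by lyz (lysozyme), npsn and mpx (myeloperoxidase) held 820 and 647 rgs2 CPM. Another leukocyte-like cluster, led by si:ch211-194m7.3 and ccl35.1, held 346 and 268.5. A cluster of 71 cells with gch2 among its leading genes, where 55.6% of gated cells were pigment-like, held 255 and 189. The cluster led by desmb, csrp1b and tagln, whose gated cells were all smooth-muscle-like, held 328 and 309 rgs2 CPM with 1.40 and 10.5 rgs4 CPM. A second cluster with a majority of smooth-muscle-like gated cells, led by si:dkey-57k2.6, elnb and dlx4a, held 1.64 and 2.18 rgs2 CPM and 38.6 and 41.4 rgs4 CPM. The gate thus joins clusters of unlike Rgs levels. A cluster of 85 cells led by BX248318.1, uts2d and lyve1a had both rgs5a, at 786 and 908 CPM, and rgs2, at 130 and 163 CPM.

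**Figure D3:**
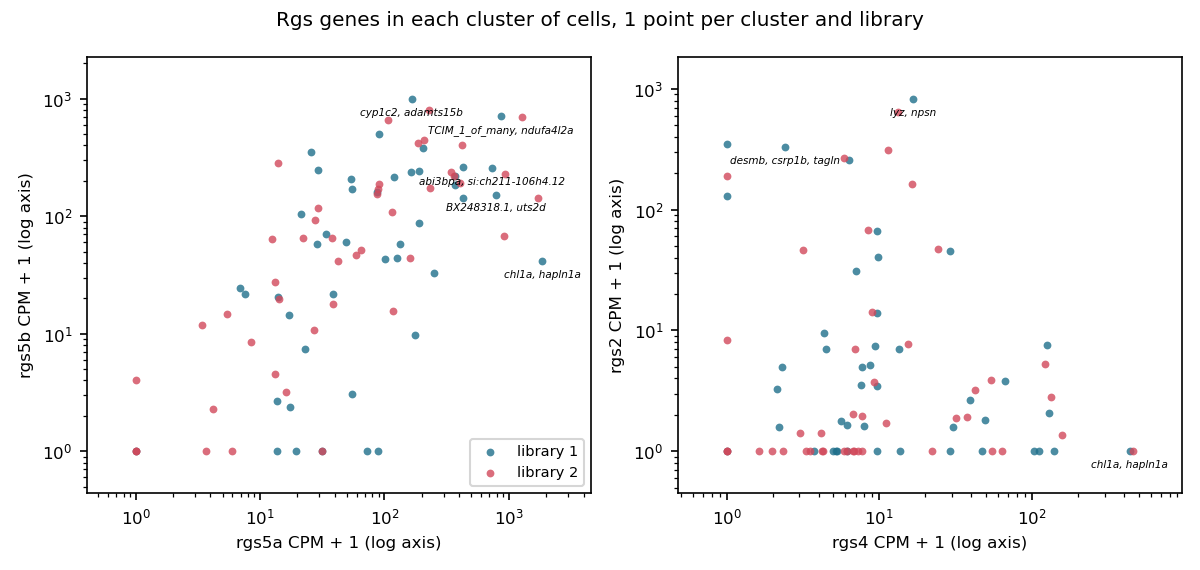
Levels in each of the 44 clusters, 1 point per cluster and library, on log axes of CPM + 1: rgs5b against rgs5a at left, rgs2 against rgs4 at right, with the leading genes of some clusters. The cluster led by chl1a and hapln1a stands at 1860 and 1718 rgs5a CPM and 437 and 461 rgs4 CPM, and the smooth muscle cluster led by desmb at 328 and 309 rgs2 CPM and 1.40 and 10.5 rgs4 CPM.

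The matrices list 24 genes of the rgs family by symbol, of which 19 passed the filter on low counts. In pericyte-like over smooth-muscle-like cells edgeR called 1 of the 19 as higher, rgs4, and 5 as lower: rgs2, rgs17, rgs3a, rgs8 and rgs19. Of all genes it called 3.7% as higher and 6.84% as lower. The median was -0.41 on the log2 scale over the family and -0.05 over all genes. The rgs17 gene had 7.32 and 9.16 CPM in pericyte-like and 26.6 and 25.4 in smooth-muscle-like cells, a difference of -1.88 ± 0.33 (edgeR adjusted p = 8.33e-04). The rgs3a gene had 32.2 and 41.6 against 85.0 and 83.8 CPM, a difference of -1.44 ± 0.28 (edgeR adjusted p = 0.00148). The rgs19 gene had 10.2 and 24.99 against 30.3 and 28.9 CPM, a difference of -0.93 ± 0.26 (edgeR adjusted p = 0.0281), a call that was lost with scaling by library size alone. The rgs8 gene had no UMI in the pericyte-like sums and 3.33 and 4.32 CPM in the smooth-muscle-like ones.

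Over the non-mural classes, pericyte-like cells had 3 of the 19 higher, rgs5a, rgs4 and rgs5b, and none lower by edgeR or DESeq2 (0 at an unadjusted edgeR p under 0.05 and 1 at an unadjusted DESeq2 p), with a median of -0.0047 over the family and 0.10 over all genes. In edgeR's fit of this contrast, genes such as rgs2, rgs8 and rgs16 had no usable standard error. Empty pericyte-like sums alone do not account for this. With the same sums, rgs2 had a standard error of 1.05 against smooth-muscle-like cells, and rgs16 did have a pericyte-like UMI. Among the classes averaged here, neuron-like and tenocyte-like cells held no rgs2 UMI. Genes without a standard error could not be called as lower, yet enter the family median. The same limit applies to the share of all genes called as lower. Against single classes rgs2 was lower than in leukocyte-like (edgeR adjusted p = 2.265e-08), pigment-like (edgeR adjusted p = 0.00332) and epidermis-like cells (edgeR adjusted p = 0.0103). There 31.8%, 19.7% and 28.4% of all genes were called. The other non-mural pairs did not pass. Of all genes edgeR called 9.35% as higher and 2.6% as lower in that contrast. In smooth-muscle-like cells edgeR called 17.0% of all genes as higher and 3.98% as lower. Of the 19 family genes 9 were higher there and none lower by edgeR or DESeq2 (0 also at an unadjusted p under 0.05), with a median of 1.20 against 0.19 over all genes. Here too some genes, such as rgs9b and rgs14a, had no usable standard error in edgeR's fit and could not be called. Besides rgs2, rgs5a and rgs5b the higher ones were rgs17, rgs3a, rgs12a, rgs19, rgs12b and rgs8. Of the genes next to rgs5a in the assembly, rgs16, named for its place and not by its values, held at most 0.83 CPM and rgs8 no UMI in the pericyte-like sums.

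**Figure D4:**
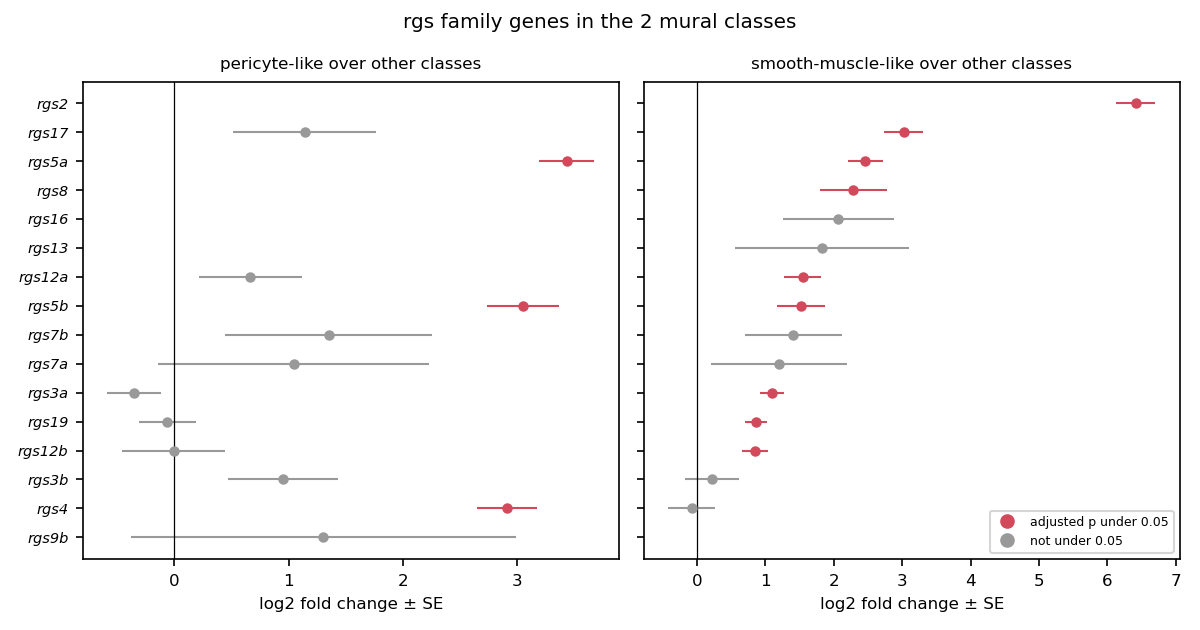
Log2 fold change with its SE of rgs family genes in pericyte-like cells (left) and smooth-muscle-like cells (right) over the mean of the 10 non-mural classes; red marks an edgeR adjusted p under 0.05, and estimates with an SE above 3 are not drawn. Only rgs5a, rgs4 and rgs5b are red at left and 9 genes are red at right, beside 9.35% and 17.0% of all genes called as higher. The size for rgs2 rests partly on classes without a UMI.

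Receptors of mural cells, alpha subunits and effectors of Gq signalling were counted from 3 lists. The lists are not limited to partners of these regulators. The receptors were not chosen by G protein class, and the alpha subunits include some outside the Gi and Gq classes, such as gna12a and gnas. The lists were chosen with earlier results of these data known, so their counts are a description. A receptor list chosen for mural cells can exceed the share of all genes there by that choice alone. Of 29 receptors that act on mural cells 18 were tested. In pericyte-like over smooth-muscle-like cells 7 of them were higher and 1 lower (median 0.98), where 3.7% of all genes were higher and 6.84% lower. The endothelin receptor ednraa had 300.3 and 232 CPM in pericyte-like and 69.1 and 65.7 in smooth-muscle-like cells, a difference of 1.70 ± 0.19 (edgeR adjusted p = 4.13e-06). The angiotensin receptor agtr2, not one of those that drive contraction through Gq, differed by 2.02 ± 0.23 (edgeR adjusted p = 1.12e-05). The sphingosine-1-phosphate receptor s1pr1 differed by 1.67 ± 0.27 (edgeR adjusted p = 3.13e-04). The lower one was the serotonin receptor htr2b (edgeR adjusted p = 6.91e-04), with no UMI in the pericyte-like sums and 14.4 and 13.4 CPM in the smooth-muscle-like ones. Over the non-mural classes 12 receptors were higher in pericyte-like cells (median 2.63) and 11 in smooth-muscle-like cells (median 1.75), against 9.35% and 17.0% of all genes, and none was lower by edgeR or DESeq2 (0 also at an unadjusted p under 0.05). Some receptors, such as adra1ab in both contrasts, had no usable standard error in edgeR's fit and could not be called.

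Of 17 alpha subunits 14 were tested. In pericyte-like over smooth-muscle-like cells 1 was higher and 2 were lower (median -0.42), beside 3.7% and 6.84% of all genes. These calls are too few to set above or below those shares. The higher one was gna12a, at 51.3 and 37.5 against 12.9 and 14.5 CPM. The lower ones were gnao1a, at 13.2 and 10.8 against 52.9 and 40.6 CPM, and gnai2b, at 7.32 and 8.33 against 15.9 and 15.7, whose call was lost with library size alone. Over the non-mural classes 1 was higher and 1 lower in pericyte-like cells (median 0.23), beside 9.35% and 2.6% of all genes, and 5 were higher in smooth-muscle-like cells (median 0.45), beside 17.0%. Of 18 effectors of Gq signalling 15 were tested, and none was higher by edgeR or DESeq2 (0 also at an unadjusted p under 0.05) and 4 were lower in pericyte-like than in smooth-muscle-like cells (median -0.55). Of all genes 3.7% were higher and 6.84% lower. Among the 4 lower effectors were the myosin light chain kinases mylkb and mylka and the inositol trisphosphate receptor itpr1a. With library size alone 2 of the 4 were called, mylka and mylkb. The mylkb gene had 11.7 and 6.67 against 1039 and 1047 CPM, and mylka 77.6 and 74.1 against 133 and 143. Over the non-mural classes 4 effectors were higher and 1 lower in pericyte-like cells (median 0.46), beside 9.35% and 2.6% of all genes. The lower call, arhgef12a, was lost with library size alone and with DESeq2. In smooth-muscle-like cells 6 effectors were higher (median 0.56), beside 17.0% of all genes.

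In the um148 libraries, 3 of the members could be followed. The authors' deposited table gives for each gene the normalized counts of um148 libraries 1 to 3 and a fold change of um148 over a wild-type group that is not among the samples here. Bulk values cannot tell fewer cells of a type from less RNA per cell, which holds for each value that follows. As a check of the labels, the receptor gene pdgfrb had 4852, 5357 and 3845 normalized counts in libraries 1, 2 and 3, and its log2 fold change in the authors' deposited table was -1.21 with an implied standard error of 0.30 (authors' adjusted p = 0.00140). The ligand genes pdgfba and pdgfbb did not pass, with log2 fold changes in the authors' deposited table of -0.66 for each and authors' adjusted p of 0.366 and 0.538. The rgs5b gene had 1476, 116 and 1392 normalized counts in libraries 1, 2 and 3. Library 2 was 12.7-fold below library 1, a spread that 0.558% of the 5198 genes with a mean of at least 500 reached or exceeded. The log2 fold change in the authors' deposited table was -2.97 with an implied standard error of 1.03 (authors' adjusted p = 0.0377). The mean of wild-type that this fold change implies was 7807, and each of the 3 libraries lay below it, with log2 ratios to it of -2.40, -6.07 and -2.49. Without library 2 the log2 ratio of the mean to the implied wild-type mean was -2.45, a value without a test.

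The rgs5a gene had 5709, 8865 and 12498 normalized counts, against an implied wild-type mean of 17372. All 3 libraries were below that mean, but the log2 fold change in the authors' deposited table, -0.94 with an implied standard error of 0.41, did not pass (authors' adjusted p = 0.124). The rgs4 gene had 1416, 2204 and 2339 normalized counts, against an implied mean of 2929. Its log2 fold change in the authors' deposited table was -0.56 with an implied standard error of 0.28 and did not pass (authors' adjusted p = 0.186). Library 1 was the lowest of the 3 for rgs5a and rgs4 and the highest for rgs5b. The ratio of rgs5b to rgs5a counts was 0.26, 0.013 and 0.11 in libraries 1, 2 and 3, against 0.45 for the implied wild-type means, a description with no test. A smaller difference of rgs5a and rgs4 than of rgs5b was not tested between genes.

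**Figure D5:**
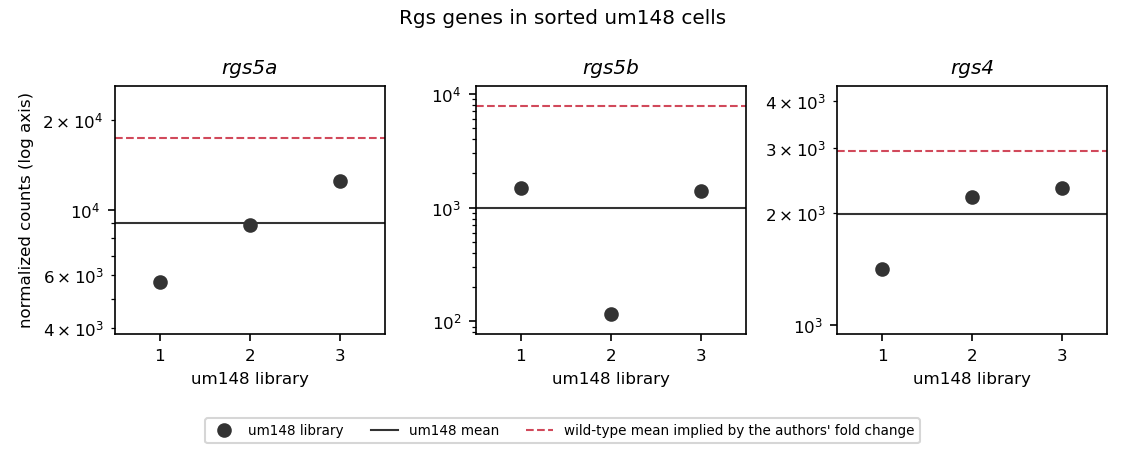
Normalized counts (log axis) of rgs5a, rgs5b and rgs4 in the 3 um148 libraries, with their mean as a solid line and the wild-type mean implied by the authors' fold change as a dashed line. Every point is below its dashed line, and rgs5b stands at 116 in library 2 against 1476 and 1392 in the other libraries.

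At an authors' adjusted p under 0.05 the authors' deposited table calls 11.3% of 16853 genes, 6.18% as higher and 5.13% as lower, and 1 of the 3 listed members. At an adjusted p under 0.01 it calls 5.84% and no member. Of the 14 rgs genes with an adjusted p in the authors' deposited table, rgs5b was the only one called. The median of the family was -0.25, against 0.02 over all genes. Of the gate's pericyte markers 3 of 7 were lower, kcne4, kcnj8 and ndufa4l2a, and none higher (median -0.15). None of 6 smooth muscle markers was called (median -0.23), nor of 7 endothelial markers (median -0.25). Summed normalized counts of the pericyte markers were 14799, 16897 and 22153 in libraries 1 to 3, of the smooth muscle markers 8547, 8622 and 10509, and of the endothelial markers 1623, 1296 and 1622. For the pericyte and smooth muscle markers the sum of library 2 lay between those of libraries 1 and 3, while its endothelial markers were the lowest of the 3. Such sums follow mostly the markers with the highest counts. The median log2 ratio of the smooth muscle markers to the implied wild-type mean was instead lowest in library 2, at -0.26, -0.38 and -0.03 in libraries 1 to 3. Fibroblast markers, at 42163, 36540 and 47384, and tenocyte markers, at 16267, 14980 and 18027, were also lowest in library 2. So were epidermis markers, at 49661, 28344 and 31943, and pigment markers, at 1771.6, 443 and 589. The only leukocyte marker listed was lowest there too, at 435, 47.9 and 120. Skeletal muscle markers, at 9781, 16457 and 2770.1, and neuron markers, at 1056, 1709 and 686, were highest in library 2. Glia and chondrocyte markers were highest there as well. Of the osteoblast markers 3 of 6 were lower in the authors' deposited table (median -0.63), with sums of 11342, 11860 and 10899. The part of any of these lists in the rgs5b value was not tested.

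Beside each count that follows stand 6.18% of all genes called as higher and 5.13% as lower. Among 20 receptors with an adjusted p in the authors' deposited table, 3 were higher and 2 lower (median -0.16 over those listed). The higher ones were adra1ba, f2r and ptger2a. The lower ones were adora2aa, an adenosine receptor, with 147, 115 and 76.3 normalized counts and a log2 fold change of -1.67, and s1pr1, with 2357, 2231 and 2573 and a log2 fold change of -0.99 in the authors' deposited table. Of the alpha subunits 1 of 14 was higher, gnas, the stimulatory one, and none lower (median 0.04). Of the effectors 2 of 15 were higher, among them the inositol trisphosphate receptor itpr2, and none lower (median 0.49).

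The genes most like each member were taken by Spearman's correlation of CPM over the 24 class sums, which share 2 libraries, among 8824 other genes with at least 20 CPM in a class in both libraries. For rgs5a they were zcchc24 (0.88), emilin2a (0.88), col4a1 (0.88), si:ch211-212k18.8 (0.87) and dock9b (0.86). For rgs4 they were dock9b (0.89), cyp2ad2 (0.88), calcrla (0.86), lix1l (0.85) and hoxb3a (0.85), so dock9b stands on both lists. For rgs5b they were cped1 (0.88), pdk2b (0.87), st3gal8 (0.86), tspan4b (0.86) and the endothelin receptor ednraa (0.85). The closest genes to rgs2 were slc2a3b (0.80), dok2 (0.78), bnip2 (0.78), sgpl1 (0.76) and uevld (0.76). Among the members this correlation was 0.76 for rgs5a with rgs4, 0.52 for rgs5a with rgs5b, 0.35 for rgs5b with rgs4, and -0.12, -0.30 and -0.46 for rgs2 with rgs5a, rgs5b and rgs4.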

How the data were processed

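Per the submitters' processing notes, reads were handled with CASAVA 1.8.2, STAR, RSEM, DESeq2 and Cell Ranger 3.1.0 on GRCz11; which step used which tool is not stated. The single-cell matrices hold UMI counts as deposited. The um148 columns of the authors' deposited table hold a normalized signal, whose values are whole multiples of 1 step per library within 0.01. The table's log2 fold changes, linear fold ratio, test statistic (a score), p-values, adjusted p-values and their −log10 are the authors'. The direction of the fold was read from the values: um148 over wild-type gives a wild-type total of 20284258, near the um148 mean of 19212955, and the reverse 91949403. The chi-square tail (1 degree of freedom) of the statistic equals p for all 3 listed members, and the implied standard error takes it as a squared ratio. For 3 further columns no sample was given, and they were not used.

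Barcodes with under 500 genes or over 10% of UMIs from 13 mitochondrial genes were removed, then the highest doublet scores (scanpy 1.11.5, scrublet), at 0.8% per 1000 barcodes. Sums per class and library were filtered with filterByExpr, TMM-scaled and fitted with edgeR 4.0.16 over 12 classes with library as a block, and p-values were adjusted over all genes (Benjamini-Hochberg). The labels number the single-cell libraries, and all classes of a library come from 1 suspension, which pairs them. The fit was run on counts simulated from its own fitted means, with changes set only in genes that were not of low count. That run does not show how the fit treats sums without a UMI. Named genes are the members, called rgs family genes (at most 6 by adjusted p), at most 4 called genes per list (but every called receptor for um148), and the 5 most alike. Gates may differ from the study's own cell types. The members, markers and lists were chosen with earlier results of these data known. DESeq2 1.42.0, other scalings, filters, gates, clusters (Leiden, resolution 1), thinned cells and left-out libraries were tried as alternatives.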

Additional observations from a re-analysis of the deposited data

Results flagged for a closer look

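Barcodes removed for over 10% mitochondrial UMIs (3976 in library 1 and 407 in library 2) enter no comparison, yet hold UMIs of all 4 genes. In library 1 they held 850 UMIs of rgs5a, 1829 of rgs5b, 210 of rgs4 and 181 of rgs2. In library 2 they held 67 of rgs5a, 91 of rgs5b, 13 of rgs4 and 24 of rgs2. As levels, library 1 had 57.6 rgs5a CPM in them against 164 in kept cells, and 124 rgs5b CPM against 145. Library 2 had 34.8 rgs5a CPM against 177 and 47.3 rgs5b CPM against 145.6. The cell types of these barcodes were not tested.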

How the results depend on the processing

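Of 201 recomputed values over 25 results, 173 kept their direction and their side of the threshold or stayed within the stated error. The rgs5a difference between the mural classes passed in 7 settings: at least 4 markers (1.33), cells thinned to 1000 UMIs (1.17), classes from clusters (1.72), the gate with abcc9, kcnj8 or ndufa4l2a (1.41), library size alone (1.24), no filter (0.90) and only the 2 classes (0.99). That of rgs5b passed with 4 markers (1.70), thinning (1.88), library size alone (1.79), no filter (1.46) and only the 2 classes (1.52). The rgs5b difference did not pass with classes from clusters or the gate with abcc9, kcnj8 or ndufa4l2a. In the setting with clusters, the pericyte side is 1 cluster with 43.0% of gated cells pericyte-like and stellate markers among its leading genes. Neither passed with DESeq2, at least 2 markers, a mitochondrial limit of 20% or no doublet removal. The rgs4 value in smooth-muscle-like over other classes changed sign with 4 markers (0.34), clusters (1.33), the 20% limit (0.25), no doublet removal (0.034) and no filter (0.012). Thinned cells gave 471 called genes in place of 1640 between the mural classes. Without the replicate block the rgs5a and rgs5b differences were 0.98 and 1.53 (edgeR adjusted p = 0.183 and 0.0926), and no call of a member changed. With 1 library left out there is no test: rgs2 ran from -8.38 to -7.94 between the mural classes (against a fitted -12.1, set by sums without a UMI, and -5.18 with classes from clusters) and from 5.16 to 5.93 in smooth-muscle-like over other classes. In the same way rgs5b in pericyte-like over other classes ran from 2.83 to 3.51, and rgs5a in smooth-muscle-like over other classes from 2.49 to 2.73. Means over cells of the CPM per cell moved rgs5a to 354 and rgs4 to 12.8 CPM in smooth-muscle-like cells. At an adjusted p under 0.01 the authors' deposited table calls 985 genes, and rgs5b (-2.97) no longer passes. The cause of these changes was not tested. Depth limits rgs2 in pericyte-like cells to an upper bound, and 2 libraries limit every class value.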
